A study of Mus musculus with 26 samples.

Results

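The genes described here are the 10 cyclins, kinases and inhibitors that gate the G1 phase of the cell cycle: Ccnd1, Ccnd2, Ccnd3, Cdk4, Cdk6, Cdkn1b, Cdkn2a, Cdkn2b, Ccne1 and E2f1. They were picked by gene symbol, with letter case ignored, and are 10 of the 55391 lines of the count table that name a gene. All 10 passed the filter on low counts that left 14264 genes for testing, Cdkn2a and Cdkn2b through EA2 and EA3 alone. RNA was sequenced from EA1, EA2 and EA3, lung cancer lines of C57BL/6 mice with the genotype EML4-ALK, an oncogenic fusion kinase. The authors developed EA1 and EA3, inducing tumors with an adenovirus that carries Cas9 and guide RNAs to Eml4 and Alk, and were given EA2 by another laboratory. Each is a single line. The lines were grown in dishes with 100 nM alectinib, an inhibitor of the ALK kinase, or with 0.1% of its solvent DMSO, and were sampled on days 1, 2, 3 and 5. Each combination of line, treatment and day is a single library, which gives 24 libraries in 6 groups of 4, in which the 4 days serve as replicates, so that each SD below holds the change over days as well as technical error.

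D-type cyclins, encoded by Ccnd1, Ccnd2 and Ccnd3, bind and switch on the kinases Cdk4 and Cdk6, which phosphorylate the retinoblastoma protein and so release E2F transcription factors such as E2f1. E2F factors then switch on Ccne1, the cyclin that activates Cdk2, and the genes of DNA replication. Inhibitors hold the pathway back: p15 (Cdkn2b) and p16 (1 product of Cdkn2a) block Cdk4 and Cdk6, and p27 (Cdkn1b) blocks Cdk2 complexes. The other product of Cdkn2a is ARF, which binds Mdm2. Transcription of Ccnd1 is known to respond to mitogenic signals through the MAPK pathway, and Cdkn2a is a tumor suppressor gene that lung cancers often lose.

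Promoter sequences of RefSeq (GRCm38.p6) were held for 8 of the 10 genes, all but Ccnd1 and Ccnd2. Those of Cdkn2a and Cdkn2b are shown because these genes gave the largest contrast between lines, and that of Cdk4 because it did not pass the test of a difference between the lines in DMSO. Each runs 5′ to 3′ up to the base before the first transcribed base of the annotation, on the gene's own strand. Capitals mark the E-box CACGTG, to which MYC and related factors bind, and an E2F-type site, TTTCCCGC.
Cdk4, chr10:127063285-127063533, plus strand: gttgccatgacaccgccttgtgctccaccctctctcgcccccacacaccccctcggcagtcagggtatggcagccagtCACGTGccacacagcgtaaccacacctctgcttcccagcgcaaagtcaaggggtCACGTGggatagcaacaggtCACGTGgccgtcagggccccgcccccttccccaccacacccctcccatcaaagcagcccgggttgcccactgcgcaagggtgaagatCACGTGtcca
Cdkn2a, outer start (ARF), chr4:89294654-89294869, minus strand: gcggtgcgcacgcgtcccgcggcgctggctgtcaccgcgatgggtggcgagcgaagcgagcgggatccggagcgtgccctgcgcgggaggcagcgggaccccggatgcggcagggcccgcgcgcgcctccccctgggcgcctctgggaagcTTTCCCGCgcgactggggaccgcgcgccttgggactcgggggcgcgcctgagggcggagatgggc
Cdkn2a, inner start (p16), chr4:89282193-89282442, minus strand: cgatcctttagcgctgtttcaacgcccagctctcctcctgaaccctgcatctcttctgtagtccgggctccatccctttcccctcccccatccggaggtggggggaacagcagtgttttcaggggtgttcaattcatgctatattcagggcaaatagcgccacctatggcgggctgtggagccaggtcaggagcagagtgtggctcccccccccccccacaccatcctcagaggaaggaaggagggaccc
Cdkn2b, chr4:89311040-89311282, minus strand: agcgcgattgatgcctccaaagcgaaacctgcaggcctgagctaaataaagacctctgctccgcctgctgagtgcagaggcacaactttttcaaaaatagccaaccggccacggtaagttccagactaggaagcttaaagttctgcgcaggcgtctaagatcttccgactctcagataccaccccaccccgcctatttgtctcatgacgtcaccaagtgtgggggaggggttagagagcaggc

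The search covered both strands of windows of 300 bases, from 250 before to 50 after a start. The Cdk4 window held 4 E-boxes. At least 1 E-box stood in 7.15% of the 32851 windows of the RefSeq set and at least 4 in 0.024% of them. The outer Cdkn2a start held 1 E2F-type site, and 2.265% of windows held 1 of the 4 forms searched (TTTCCCGC, TTTCGCGC, TTTGCCGC or TTTGGCGC). Cdk6 held 1 E-box, and neither pattern stood in the windows of the inner Cdkn2a start, Cdkn2b, Cdkn1b, Ccnd3, Ccne1 or E2f1. The FOXO pattern GTAAACA (3.65% of windows) stood in 1 window of Ccnd3, the AP-1 pattern TGANTCA (7.808%) in none, and the GC box GGGCGG (35.658%) in those of all these genes but Cdk6. A match in letters is a description and not a measured binding site.

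Library totals lay between 5780060 and 11732400 counts. Each of the 24 libraries correlated best, across genes, with the other libraries of its own line, whereas both of 2 further libraries labelled EA3 day 7 correlated best with EA2. These 2 were kept out of the values below unless their inclusion is stated, and values with them may not describe EA3. The epithelial genes Krt8, Krt18, Krt19 and Cdh1 were detected in every library, Krt8 down to 10.3 CPM (91 counts) in EA2 with alectinib on day 3, and Krt7 in EA2 had 1 to 31 counts. However, the lung lineage markers Nkx2-1 and Sftpc had at most 7 counts and 1 count respectively in any library, and the leukocyte marker Ptprc at most 4, whereas Cd68, a macrophage marker of the same list, reached 87.3 CPM in EA2 and 91.6 CPM in EA3. The epithelial markers Epcam, Cldn4 and Cldn7 had at most 7, 2 and 2 counts in EA2. In EA1, Epcam had 3 to 75 counts, Cldn4 at most 9 and Cldn7 at most 2. In EA3, each of these had at least 226 counts in every library. The summed CPM (counts relative to the library's total, scaled by TMM factors) of 8 fibroblast markers was higher with alectinib in every line, with ranges of 9.08 to 44.1 in DMSO and 126 to 478 in alectinib for EA1, 58.5 to 71.5 and 122 to 239.8 for EA2, and 10.2 to 20.2 and 84.8 to 274 for EA3. The highest single value was that of a different gene in each line: Col3a1 in EA1 (254 CPM), Dcn in EA2 (164 CPM) and Col1a1 in EA3 (180 CPM). Col3a1 reached no more than 3.03 CPM in EA2. Lum had 0 counts in EA2 and at most 1 in EA3, and Thy1 stayed at 2 counts or fewer throughout. The summed CPM of 10 epithelial markers was lower with alectinib in EA2, at 568 to 1171 against 1811 to 2695 in DMSO with no overlap. It ran from 3284 to 5421 with alectinib against 4677 to 9312 in EA1, and from 3621 to 8619 against 5378 to 7963 in EA3, and both of these pairs of ranges overlap. Whether either shift has a part in the results below was not tested.

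**Figure D1:**
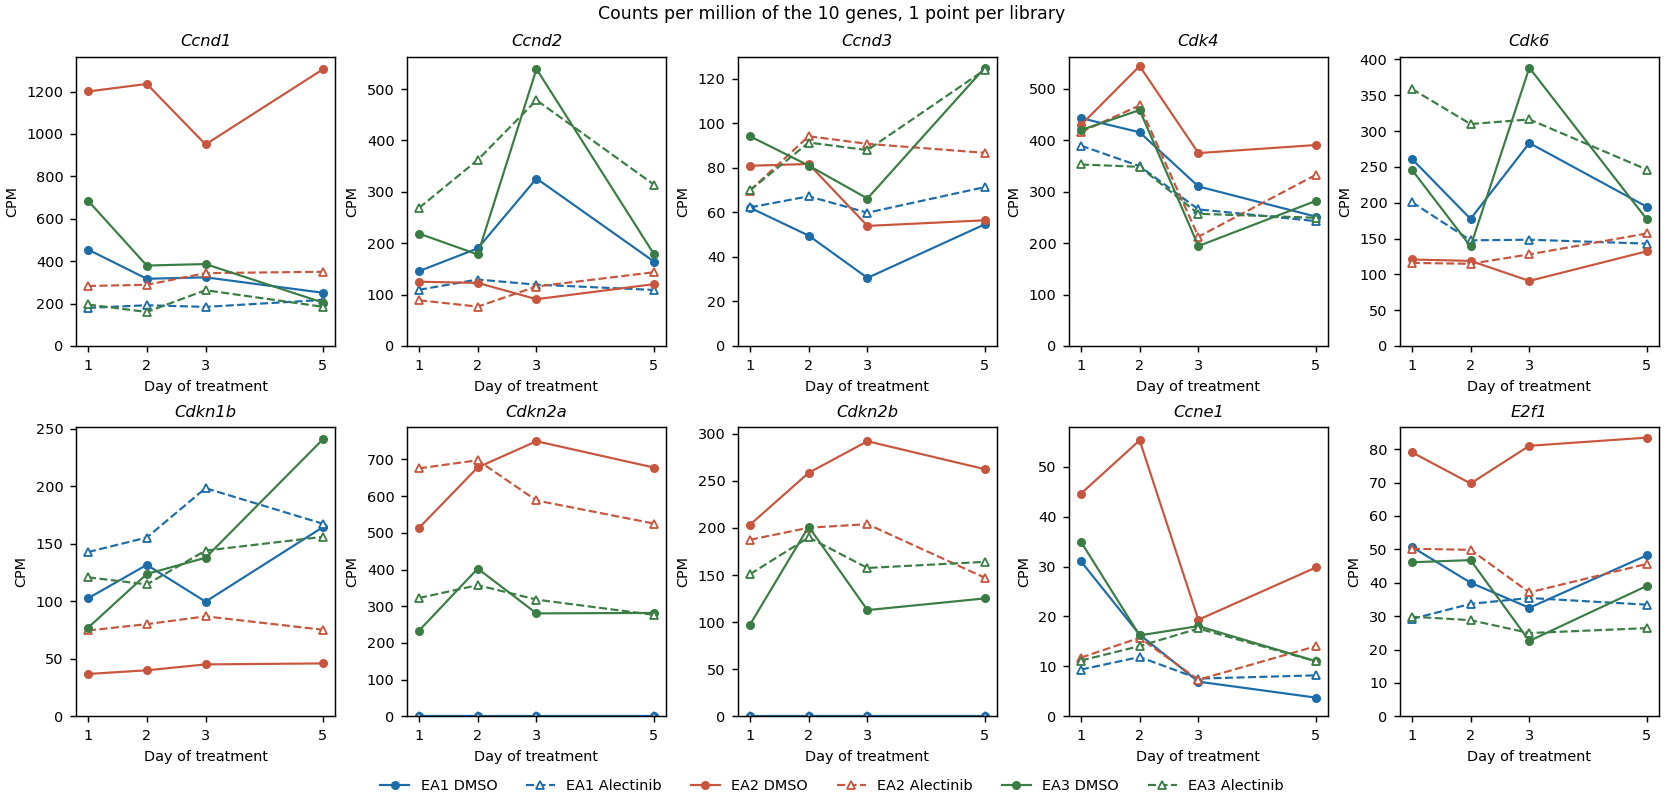
CPM of the 10 genes (vertical axes, starting at 0) against the day of treatment (horizontal axes), 1 point per library, with filled circles and solid lines for DMSO and open triangles and dashed lines for alectinib. Ccnd1 in EA2 lies at 951 to 1306 CPM in DMSO and at 283 to 350.0 CPM with alectinib, and Cdkn2a and Cdkn2b lie at or next to 0 in EA1.

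Cyclin D1 RNA fell with alectinib in all 3 lines, and it was the only one of the 10 genes to pass the test in more than 1 line. The fall was 1.89 on the log2 scale in EA2, to 0.27 of the DMSO level, against 0.94 in EA3 and 0.77 in EA1. In EA2, Ccnd1 (chr7:144929931-144939925, minus strand, in the GENCODE annotation of GRCm38) stood at 1201, 1236, 951 and 1306 CPM in DMSO on days 1, 2, 3 and 5 and at 283, 288, 344 and 350.0 CPM with alectinib. The 2 sets lay far apart on every day. In EA1, the DMSO values were 455, 317, 324 and 251 CPM and the alectinib values 179.6, 192, 184 and 217 CPM. Here too no alectinib library reached the lowest DMSO library, but the distance shrank by day 5. In EA3, DMSO gave 685, 379, 386 and 204 CPM and alectinib 196, 160.2, 263 and 185 CPM, so that the groups overlapped through the low DMSO value of day 5. Ccnd1 was lower with alectinib on all 4 days in each line.

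The test of alectinib against DMSO was edgeR's quasi-likelihood test, with p-values adjusted over all 14264 genes by Benjamini-Hochberg and a threshold of 0.05. For Ccnd1, it gave a log2 difference of -1.89 (SE 0.24, adjusted p = 0.000111) in EA2, -0.94 (SE 0.24, adjusted p = 0.0101) in EA3 and -0.77 (SE 0.24, adjusted p = 0.0244) in EA1. The EA2 call held without any 1 day. The EA1 call was lost without day 1, 2 or 3, with differences of -0.58, -0.87 and -0.79 (adjusted p = 0.0767, 0.0601 and 0.0899), and when library size alone set the scale (-0.68, adjusted p = 0.0547). The EA3 call was lost without day 1 (-0.65, adjusted p = 0.0546) or day 2 (-0.87, adjusted p = 0.0770). With the day 7 libraries included, which resemble EA2, the EA3 difference was -1.19. Of the exon bases of Ccnd1, 23.4% overlap LTO1 on the opposite strand. The kit kept the strand, but the column of the counter that the authors used is not given in the sources used here.

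Cyclin D2 passed the test in EA1 alone. In EA1, Ccnd2 was at 146, 190.0, 326 and 164 CPM in DMSO and at 109, 129, 119 and 109 CPM with alectinib, with no overlap. The log2 difference was -0.75 (SE 0.23, adjusted p = 0.0234), which was lost without day 3 (adjusted p = 0.0769) or day 5 (0.0509). In EA2, the 8 libraries lay between 76.5 and 144 CPM, with a log2 difference of -0.14 (95% interval -0.64 to 0.36). In EA3, DMSO gave 219, 178, 539 and 179 CPM and alectinib 269, 362, 479 and 314 CPM, higher on 3 of 4 days. That log2 difference of 0.49 (95% interval -0.00493 to 0.99, adjusted p = 0.120) passed the threshold without day 3 (0.69, adjusted p = 0.0298) and with library size alone (0.61, adjusted p = 0.0452). It fell to 0.27 without day 2 (adjusted p = 0.488), to 0.35 with no day block (0.406) and to 0.22 with the day 7 libraries included (0.515).

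Cyclin D3, the D-type cyclin best known from lymphoid cells, did not pass the test in any line. Ccnd3 ran from 30.6 to 62.1 CPM in DMSO and from 59.9 to 71.4 CPM with alectinib in EA1, and the log2 difference was 0.45 (adjusted p = 0.0868). It was 0.34 (adjusted p = 0.219) in EA2 and 0.035 (adjusted p = 0.905) in EA3. Without day 1, the EA1 difference was 0.60 and passed (adjusted p = 0.0329), and without day 3 it was 0.24 (adjusted p = 0.408).

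The D-type cyclins were also set side by side per kilobase of annotated exon, which is 4709 bases for Ccnd1, 9409 for Ccnd2 and 8775 for Ccnd3. This length pools the exons of all transcripts of a gene and can exceed that of any single one, so that the shares depend on it. Ccnd1 made up 92.6% ± 0.723 (SD, n = 4 days) of the 3 transcripts in EA2 in DMSO and 76.3% ± 1.16 with alectinib. Its share was 71.7% ± 7.04 and 67.4% ± 1.91 in EA1, and 66.9% ± 12.7 and 46.8% ± 5.10 in EA3. The shares in EA2 lay far apart, those in EA1 overlapped, and in EA3 the DMSO share reached down to 55.8% while the highest alectinib share was 53.2%. In EA3 with alectinib, Ccnd2 had a share of 41.3% ± 4.53. Without division by length the order there was reversed, with 54.4% for Ccnd2 and 31.0% for Ccnd1. The sum of the 3 transcripts went from 269 ± 35.2 CPM per kilobase in EA2 DMSO to 88.2 ± 11.0 with alectinib, from 99.0 ± 18.1 to 60.9 ± 3.98 in EA1, and from 128 ± 44.8 to 91.1 ± 17.5 in EA3. These shares are descriptions without a test.

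**Figure D2:**
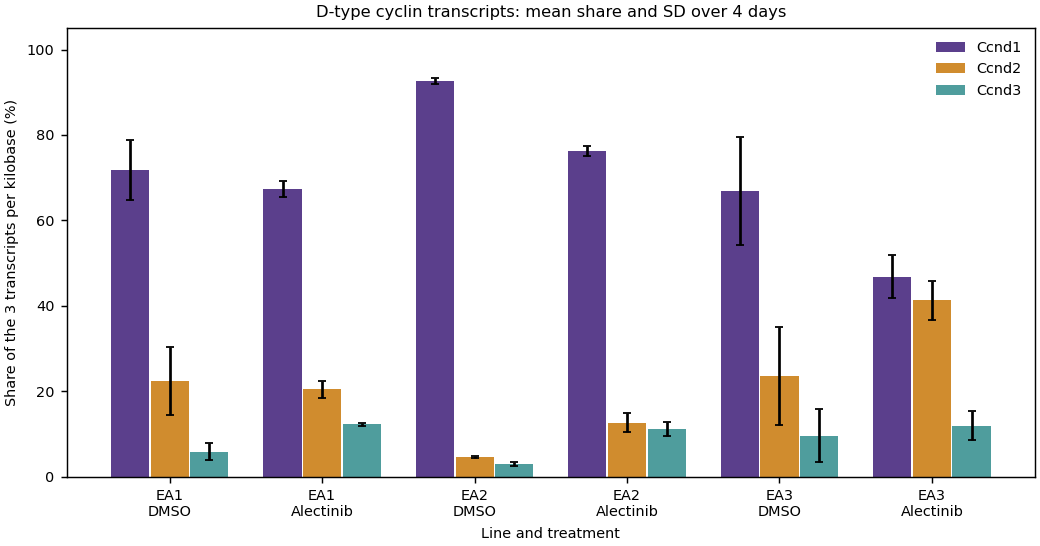
Share of Ccnd1, Ccnd2 and Ccnd3 in the summed CPM per kilobase of the 3 transcripts (vertical axis, percent) for each line and treatment (horizontal axis); bars are means over 4 days and error bars are SD. Ccnd1 takes 92.6% in EA2 in DMSO and 46.8% in EA3 with alectinib, where Ccnd2 takes 41.3%.

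Neither kinase passed the test in any line. Cdk4 (chr10:127063534-127067920, plus strand), whose promoter with 4 E-boxes is printed above, fell short of its DMSO level on every day in EA1 and EA2 and on 3 of 4 in EA3. The widest gap was that of EA2 on day 3, at 213 against 375 CPM. Its log2 differences were -0.18 (95% interval -0.50 to 0.15) in EA1, -0.33 (-0.65 to -0.00114) in EA2 and -0.11 (-0.43 to 0.22) in EA3. The adjusted p-values were 0.379, 0.137 and 0.621, in that order. With library size alone, the EA3 value turned to 0.00860. Of its exon bases, 19.7% overlap Tspan31 on the opposite strand.

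Cdk6, the partner kinase that Cdk4 resembles, moved in opposite senses in EA1 and EA3 without passing the test in either. EA1 had 261, 177, 283 and 194 CPM in DMSO and 201, 147, 148 and 143 CPM with alectinib, lower on each day. EA3 had 246, 139, 388 and 177 CPM in DMSO and 359, 309.8, 316 and 246 CPM with alectinib, higher on 3 of 4 days. The log2 differences were -0.51 (SE 0.19, adjusted p = 0.0587) in EA1, 0.16 (SE 0.19, adjusted p = 0.590) in EA2 and 0.47 (SE 0.20, adjusted p = 0.0811) in EA3. The EA1 value crossed the threshold in 4 of 8 other settings (among them inclusion of the day 7 libraries, adjusted p = 0.0496) and without day 2, and the EA3 value without day 3 (adjusted p = 0.0109) and with library size alone (0.0233). The EA3 difference fell to 0.20 without day 2 (adjusted p = 0.517) and to 0.27 with the day 7 libraries included (0.304).

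Among the inhibitors, Cdkn1b, which encodes p27, rose with alectinib in EA2. EA2 held 36.8, 40.0, 45.1 and 46.0 CPM in DMSO and 74.6, 80.1, 86.9 and 75.2 CPM with alectinib, so that every alectinib library was above every DMSO library. The log2 difference was 0.92 (SE 0.19, adjusted p = 0.00336), and the call held without any 1 day. EA1 stood higher to begin with, at 103, 132, 99.6 and 164 CPM in DMSO and 143, 155, 198 and 167 CPM with alectinib. Its difference of 0.43 (95% interval 0.028 to 0.84) had an adjusted p of 0.0910, or 0.0461 with library size alone. Without day 3, the EA1 difference was 0.21 (adjusted p = 0.505). EA3 gave 76.9, 124, 138 and 241 CPM in DMSO and 121, 115, 144 and 156 CPM with alectinib, and its difference was -0.00647 (95% interval -0.41 to 0.40).

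Cdkn2b, which encodes p15, and Cdkn2a did not pass the test in EA2 or EA3. In EA2, Cdkn2b was below its DMSO level on each day, at 203, 259, 292 and 262 CPM in DMSO against 187, 200.3, 204 and 147 CPM. In EA3 it was above it on 3 of 4 days, at 97.3, 201, 113 and 125 CPM against 150.9, 190.0, 158 and 164 CPM. The log2 differences were -0.46 (SE 0.16, adjusted p = 0.0563) and 0.35 (SE 0.16, adjusted p = 0.110). The EA2 value passed in 4 of 7 other settings, among them DESeq2 (-0.48, adjusted p = 0.0289) and inclusion of the day 7 libraries (-0.49, adjusted p = 0.0462), and the EA3 value with library size alone (0.47, adjusted p = 0.0491). Cdkn2a differed by -0.071 (95% interval -0.43 to 0.29) in EA2 and by 0.11 (-0.25 to 0.47) in EA3. In EA1, neither gene rose above 1 count in a library, so that no ratio is given.

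Cyclin E1 and E2f1, the downstream pair, fell in EA2. Ccne1 in EA2 had 44.6, 55.3, 19.3 and 29.8 CPM in DMSO and 11.8, 15.7, 7.33 and 14.0 CPM with alectinib, with no overlap. The log2 difference was -1.56 (SE 0.37, adjusted p = 0.00740), and without day 2 it was -1.48 (adjusted p = 0.0605). In EA1 and EA3, a low level was reached in DMSO as well: EA1 DMSO went through 31.1, 16.4, 6.95 and 3.75 CPM, against 9.36, 11.9, 7.56 and 8.21 CPM with alectinib. In EA3, DMSO gave 35.0, 16.2, 18.1 and 11.0 CPM and alectinib 11.2, 14.1, 17.6 and 11.0 CPM. The log2 differences were -0.29 (95% interval -1.12 to 0.54) in EA1, which turned to 0.22 without day 1, and -0.47 (-1.27 to 0.32) in EA3. Over the days left out, the EA3 difference ranged from -0.65 to -0.081.

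E2f1 in EA2 was at 79.1, 69.7, 81.0 and 83.4 CPM in DMSO and at 50.2, 49.8, 37.1 and 45.6 CPM with alectinib, again apart on every day. The log2 difference was -0.78 (SE 0.18, adjusted p = 0.00573) and held without any 1 day. EA1 gave -0.36 (adjusted p = 0.131) and EA3 -0.44 (adjusted p = 0.0758), with 3 of 4 days lower in each. Day 3 was the exception in both lines. Without it, EA1 passed at -0.56 (adjusted p = 0.0297) and EA3 at -0.65 (adjusted p = 0.0123), and EA3 also passed with no day block (0.0479) and by DESeq2 (0.0493). Over the days left out, the difference ranged from -0.56 to -0.22 in EA1 (adjusted p up to 0.471) and from -0.65 to -0.38 in EA3 (up to 0.238). Over the 8 other settings, it ranged from -0.49 to -0.33 in EA3 (adjusted p up to 0.214).

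Counted over the genes, 3 of 10 were called lower and 1 of 10 higher with alectinib in EA2, where 11.3% of all tested genes were called lower and 13.0% higher. In EA1, 2 of the 8 genes with counts were called lower and 0 higher, against 14.6% and 19.0% of all genes, and in EA3 1 of 10 was called lower and 0 higher, against 15.1% and 17.5%. At an unadjusted p under 0.05, 5 of 8 genes differed in EA1, 6 of 10 in EA2 and 4 of 10 in EA3, where 44.9%, 36.0% and 42.9% of all genes did. The median log2 difference was -0.33 over 8 genes in EA1, -0.23 in EA2 and 0.014 in EA3, beside medians of 0.065, 0.00 and 0.067 over all tested genes. The share called lower was above that of all genes in EA1 and EA2 and below it in EA3, over so few genes that nothing is read from it. In bulk RNA, fewer cells in a state and less RNA per cell cannot be told apart.

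**Figure D3:**
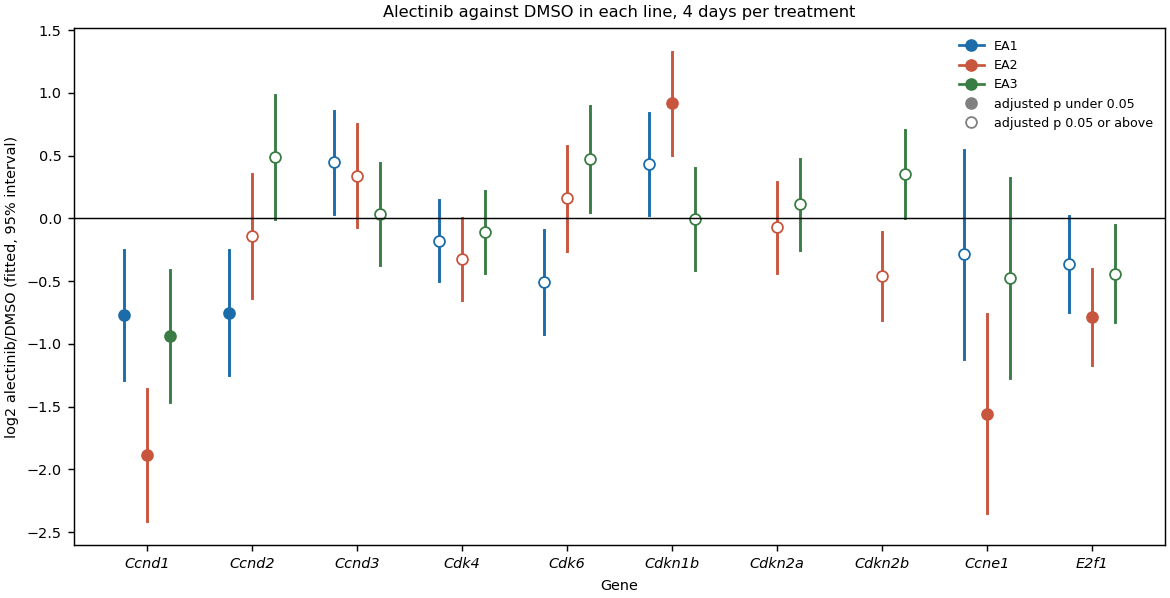
Fitted log2 difference of alectinib against DMSO (vertical axis) for each gene (horizontal axis) and line, with 95% intervals; filled points have an adjusted p under 0.05. Ccnd1 is filled in all 3 lines, Ccnd2 in EA1 only, and Cdkn1b, Ccne1 and E2f1 are filled in EA2 only; Cdkn2a and Cdkn2b have no point in EA1.

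The differences in effect between lines were tested themselves, with 2 degrees of freedom over the 3 lines. None of the 8 genes passed edgeR's test at an adjusted p of 0.05, which 6.84% of all genes did, and 4 of 8 had an unadjusted p under 0.05, as did 25.1% of all genes: Ccnd2 (adjusted p = 0.0739), Cdk6 (0.0881), Ccnd1 (0.0925) and Cdkn1b (0.104). DESeq2 called 3 of them, Ccnd1, Ccnd2 and Cdk6. In other settings of edgeR, library size alone called Ccnd2 (adjusted p = 0.0488). With no filter on low counts, Ccnd1, Ccnd2, Cdk6, Cdkn1b and Ccne1 passed (adjusted p = 0.000658 to 0.0346). Between pairs of lines, the response of Ccnd2 in EA3 stood above that in EA1 by 1.24 (95% interval 0.54 to 1.94, adjusted p = 0.0765). For Ccnd1, the response in EA2 minus that in EA1 was -1.12 (95% interval -1.84 to -0.39, adjusted p = 0.0648). Cdkn2b, comparable only between EA3 and EA2, differed by 0.81 (95% interval 0.32 to 1.31, adjusted p = 0.0818). The response of Ccne1 was -1.27 in EA2 relative to EA1 (95% interval -2.41 to -0.13, adjusted p = 0.161). For Cdk4, the intervals of the 3 pairs lay within -0.61 and 0.68.

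In DMSO, the lines differed widely in these genes. Over the 12 libraries, 7 of the 8 genes with counts in all lines differed between the lines in a test over all 3, Cdk4 being the exception (adjusted p = 0.196). Cdkn2a and Cdkn2b, which passed the filter through the lines where they are high, are left out of this count. Of the 12886 genes tested there, 55.6% did so. Ccnd1 was highest in EA2, at 1173 ± 155 CPM (SD, n = 4), above EA3 at 414 ± 199.6 and EA1 at 337 ± 85.4. EA2 exceeded EA1 by 1.83 on the log2 scale (SE 0.24, adjusted p = 9.74e-05), while EA3 and EA1 did not differ beyond their spread (0.24, 95% interval -0.28 to 0.75). Cdkn1b was lowest in EA2, at 42.0 ± 4.34 CPM, against 125 ± 30.3 in EA1 and 145 ± 69.1 in EA3, and the difference of EA2 from EA1 was -1.57 (SE 0.21, adjusted p = 9.14e-05). The same pair of neighbours, EA1 and EA3, was not told apart for Cdkn1b (0.15, 95% interval -0.29 to 0.59), nor for Cdk6 (0.00296, -0.52 to 0.53) or E2f1 (-0.16, -0.59 to 0.27).

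Cdk6 was at 116 ± 17.6 CPM in EA2, below 229 ± 51.2 in EA1 (-0.96, SE 0.24, adjusted p = 0.00816) and 238 ± 109.9 in EA3. E2f1 was highest in EA2, at 78.3 ± 6.002 CPM against 42.9 ± 8.29 in EA1 (0.87, SE 0.20, adjusted p = 0.00434) and 38.6 ± 11.3 in EA3. Ccne1 also had its highest mean in EA2, at 37.3 ± 15.9 CPM, against 20.1 ± 10.4 in EA3 and 14.5 ± 12.3 in EA1. EA2 exceeded EA1 by 1.59 (SE 0.35, adjusted p = 0.00318, or 0.0934 with no day block), and EA3 was not told apart from EA1 (0.68, 95% interval -0.061 to 1.43). EA3 minus EA2 was -0.90 (95% interval -1.64 to -0.17, adjusted p = 0.0541). This passed with DESeq2 (adjusted p = 0.0291), library size alone (0.0343) and low counts left in (0.00114), and without day 1 (0.0409) or day 3 (0.0371), and it was farther from the threshold without day 2 (0.243) or day 5 (0.153) and with no day block (0.284). Ccnd3 instead had its highest mean in EA3, 0.92 above EA1 (SE 0.19, adjusted p = 0.00301) and not told apart from EA2 (0.45, adjusted p = 0.0808), and Ccnd2 was 1.11 higher in EA3 than in EA2 (SE 0.29, adjusted p = 0.00971). Without day 3, when Ccnd2 stood apart in both of these lines, the Ccnd2 difference was 0.67 (adjusted p = 0.0124). In pairs, 5 of these 8 genes differed between EA2 and EA1, 1 of 8 between EA3 and EA1, and 5 of 8 between EA3 and EA2, where 40.8%, 32.6% and 36.5% of all genes did. These pairs share DMSO libraries with each other.

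Per kilobase, Cdkn2a was the most abundant of the 10 transcripts in EA2 DMSO (559 ± 85.5 CPM per kilobase), ahead of Ccnd1 (249 ± 32.8), Cdkn2b (183 ± 26.6) and Cdk4 (134 ± 23.5). It also led in EA3, at 256 ± 61.7, ahead of Cdk4 at 104 ± 37.7, Cdkn2b at 96.5 ± 33.3 and Ccnd1 at 87.9 ± 42.4, whose spreads overlap. In EA1, Cdk4 (109 ± 27.6) and Ccnd1 (71.5 ± 18.1) led. These orders rest on the exon length. In CPM, Ccnd1 led in EA2 DMSO (1173 against 655 for Cdkn2a), and in EA3 DMSO both Ccnd1 (414) and Cdk4 (339) stood above Cdkn2a (299.5).

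In EA1, Cdkn2a (chr4:89274471-89294653, minus strand) and Cdkn2b (chr4:89306299-89311039, minus strand) had 0 counts in each of the 4 DMSO libraries. With alectinib, Cdkn2a had 1 count on day 5 and Cdkn2b 1 count on day 1. In EA2 DMSO, Cdkn2a had 513, 678, 749.6 and 678 CPM, and in EA3 233, 403, 281 and 282 CPM. Taking 3 counts over the 4 EA1 DMSO libraries as the floor, which is 0.0842 CPM and covers counting error only, Cdkn2a was at least 7776-fold higher in EA2 and at least 3557-fold higher in EA3. Cdkn2b was at least 3018-fold and 1594-fold higher. EA2 also exceeded EA3, by 1.10 on the log2 scale for Cdkn2a (SE 0.18, adjusted p = 0.00112) and 0.93 for Cdkn2b (SE 0.20, adjusted p = 0.00574). Since the 2 products of Cdkn2a share exons and the counts are per gene, p16 and ARF RNA could not be separated.

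The genes beside this pair were looked at after their values were known. Mtap (chr4:89137122-89181081, plus strand), which encodes the methionine salvage enzyme methylthioadenosine phosphorylase and ends 93.4 kb from Cdkn2a, was well expressed in EA1, at 319.8 to 596 CPM over 8 libraries, and stood above EA2 by 1.16 and above EA3 by 1.27 on the log2 scale in DMSO (adjusted p = 0.000360 and 0.000263). Klhl9, farther out on the same side, went the other way. It had 37.1 to 73.3 CPM in EA1 and was higher in DMSO in EA2 (by 0.75, adjusted p = 0.00433) and EA3 (by 0.78, adjusted p = 0.00421). Focad had 10.5 to 16.0 CPM in EA1. On the other side, Dmrta1 stayed under 1 CPM in every library of all lines. Thus RNA was missing in EA1 from Cdkn2a and Cdkn2b but not from Mtap, and on the Dmrta1 side no gene was expressed highly enough to compare. The noncoding gene Gm12606, 1.1 kb from Cdkn2a, had 0.641 to 1.84 CPM in EA1, with 92 counts in all. Its mean was 1.21 CPM in EA1, 3.95 CPM in EA2 (310 counts) and 0.070 CPM in EA3 (4 counts), so that it did not follow Cdkn2a across the lines. Whether the DNA is deleted or the genes are silent was not tested.

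**Figure D4:**
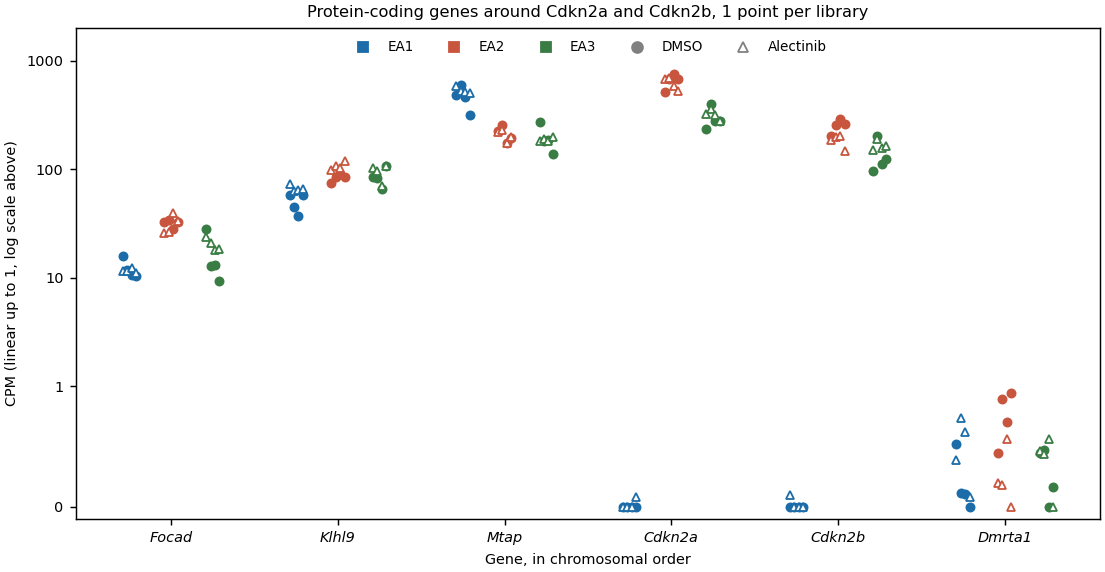
CPM (vertical axis, linear up to 1 and logarithmic above) of 6 protein-coding genes in chromosomal order (horizontal axis), 1 point per library, in EA1, EA2 and EA3 with DMSO (circles) or alectinib (triangles). Mtap in EA1 lies at 319.8 to 596 CPM while Cdkn2a and Cdkn2b in EA1 lie at or next to 0.

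Over the days, the DMSO cultures themselves changed. The level was fitted against the log2 of the day within each line and treatment, which gives a change per doubling of days. In EA1 DMSO, Ccne1 fell by 1.35 per doubling (SE 0.25, adjusted p = 0.0145), the only 1 of 8 genes called there, where 3.64% of all genes were. In EA3 DMSO, 2 of 10 were called, against 11.3% of all genes: Ccnd1 fell by 0.69 per doubling (SE 0.14, adjusted p = 0.00656) and Cdkn1b rose by 0.68 (SE 0.12, adjusted p = 0.00405). The proliferation marker Mki67 moved alongside, from 1146 CPM on day 1 to 231 CPM on day 5 in EA1 DMSO and from 561 to 125 CPM in EA3 DMSO, with slopes of -1.07 (adjusted p = 0.0532) and -0.91 (adjusted p = 0.0519). Cdkn1a, which encodes the inhibitor p21, rose in DMSO by 1.05 per doubling in EA1 (adjusted p = 0.0464) and 1.89 in EA3 (adjusted p = 0.00240). Whether cell density has a part in these slopes was not tested.

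EA2 DMSO cultures showed no such slope: none of the 10 genes was called at an adjusted or an unadjusted p under 0.05 by edgeR, where 0.0% of all genes were called and 3.08% had an unadjusted p under 0.05. Mki67 was at 520.3, 507, 282 and 511 CPM on the 4 days. With alectinib, no gene of the set was called in any line, at an adjusted or unadjusted p under 0.05. Of all genes, 0.0% were called in EA1, 0.0631% in EA2 and 0.491% in EA3. In the same order, 4.7%, 6.58% and 11.2% had an unadjusted p under 0.05. The calls of slopes depended on single days more than their sizes did. That of Ccne1 in EA1 was lost without day 1, 2 or 5, where the slopes were -1.61, -1.34 and -1.26 (adjusted p = 0.791, 0.105 and 0.236). Those in EA3 were lost without day 1 (-0.70 for Ccnd1 and 0.74 for Cdkn1b, adjusted p = 0.853 for both) or day 5 (-0.55 and 0.55, adjusted p = 0.2504 and 0.207).

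The alectinib effect is given by day beside these slopes. As a difference in log2 CPM, the Ccnd1 effect in EA3 was -1.81, -1.24, -0.55 and -0.15 on days 1, 2, 3 and 5, and in EA1 -1.34, -0.72, -0.81 and -0.21, whereas in EA2 it was -2.08, -2.10, -1.47 and -1.90. Ccne1 in EA1 went from -1.71 on day 1 to 1.09 on day 5, and in EA3 from -1.63 to -0.000328, while EA2 stayed between -1.90 and -1.07. For Cdkn1b, EA3 went from 0.65 to -0.63, while EA2 stayed between 0.71 and 1.01. The change of the effect per doubling of days was 0.74 for Ccnd1 in EA3 (SE 0.16, adjusted p = 0.0994), 1.21 for Ccne1 in EA1 (SE 0.20, adjusted p = 0.129) and 0.72 for Ccne1 in EA3 (SE 0.20, adjusted p = 0.174). None of the genes passed in any line by edgeR, with 2 of 8, 1 of 10 and 3 of 10 at an unadjusted p under 0.05 in EA1, EA2 and EA3, as were 11.5%, 6.03% and 13.2% of all genes. After adjustment, 0.021% of all genes passed in EA1, 0.0% in EA2 and 0.0491% in EA3.

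**Figure D5:**
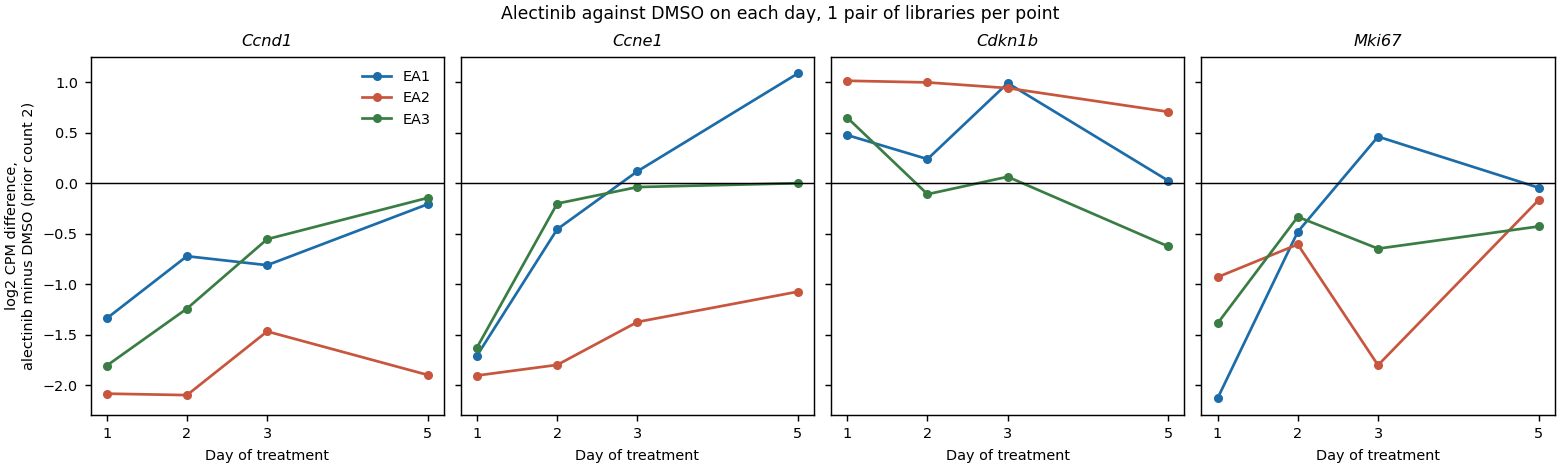
Difference in log2 CPM (prior count 2) between the alectinib and DMSO library of the same line and day (vertical axis) against the day (horizontal axis) for Ccnd1, Ccne1, Cdkn1b and Mki67. For Ccnd1, EA2 stays between -2.10 and -1.47, while EA3 goes from -1.81 on day 1 to -0.15 on day 5 and EA1 from -1.34 to -0.21.

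Around these 10 genes, 30 other regulators of the G1/S step were read from a list. In EA1, 8 of 30 fell and 2 rose with alectinib, in EA2 4 fell and 0 rose, and in EA3 10 fell and 1 rose, with medians of -0.37, -0.21 and -0.33 beside the medians of all genes given above. Of all genes, 14.6%, 11.3% and 15.1% were called lower in EA1, EA2 and EA3, so that the share of the list that fell was above that of all genes in EA1 and EA3 and close to it in EA2. The share that rose was below that of all genes (19.0%, 13.0% and 17.5%) in each line. Those that fell in all 3 lines were E2f2, an activator E2F (-1.54, -2.06 and -1.28 in EA1, EA2 and EA3), E2f4, an E2F that binds the pocket proteins (-0.88, -0.65 and -0.83), and Cks1b, a small cofactor of cyclin-dependent kinases (-0.94, -1.17 and -1.10). E2f8, a repressor E2F, was the only one whose effect differed between lines (adjusted p = 0.0459), at -0.83 (SE 0.32) in EA1, -2.71 (SE 0.33) in EA2 and -2.05 (SE 0.32) in EA3, and 1 of 30 is a smaller share than the 6.84% of all genes that passed this test. Cdkn1a was lower with alectinib than in DMSO in EA3 (-2.10, SE 0.55, adjusted p = 0.0116), and its differences were -0.89 (adjusted p = 0.189) in EA1 and -1.54 (adjusted p = 0.0544) in EA2. In EA3, its DMSO values were 15.2, 67.4, 108 and 345 CPM on days 1, 2, 3 and 5. The alectinib values were 18.0, 18.4, 13.3 and 31.6 CPM, so that day 1 went the other way and the gap grew with the rise in DMSO. The listed regulators that rose, named after their values were seen, were Fbxo4, part of a ubiquitin ligase, in EA1 (0.82) and EA3 (0.60), and the pocket protein gene Rbl2 in EA1 (0.61).

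The E2F-responsive replication genes stand downstream of the pathway. Of 30, 20 fell in EA1, 12 in EA2 and 13 in EA3, where 14.6%, 11.3% and 15.1% of all genes were called lower. In no line did any rise, where 19.0%, 13.0% and 17.5% of all genes were called higher. The medians were -0.86, -0.82 and -0.77. Cdt1, which licenses replication origins, had the largest fall in EA1 (-1.96) and EA3 (-1.93), Tk1, thymidine kinase, that in EA2 (-1.57), and Rrm1, a subunit of ribonucleotide reductase, the highest value in each line (0.046, 0.33 and 0.33). The effect differed between lines for 2 of the 30, a share close to the 6.84% of all genes, namely Cdt1 (adjusted p = 0.00251, with -0.46 in EA2) and Dut (adjusted p = 0.0425, with -0.59, -1.01 and -1.65 in EA1, EA2 and EA3), which were likewise named after their values were seen. Of 18 mitotic genes, 1 fell in EA1, 5 in EA2 and 7 in EA3. None rose in any line, and in EA1 the share that fell was smaller than the 14.6% of all genes called lower. The medians were -0.49, -1.02 and -0.98. Bub1, a kinase of the spindle checkpoint, fell most in EA1 (-0.92) and EA2 (-1.49) and Ube2c, a ubiquitin-conjugating enzyme of mitotic exit, in EA3 (-1.42). The highest mitotic values were those of Ccnb2 in EA1 (0.027), Nusap1 in EA2 (-0.49) and Cenpf in EA3 (-0.48). Mki67 itself missed the threshold in each line, at -0.52 (adjusted p = 0.272), -0.87 (0.0875) and -0.70 (0.140).

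By day, the replication genes had a median log2 ratio of -1.73 on the first day and -0.33 on the last in EA1, and of -1.47 and -0.24 in EA3. In EA2 this median was -0.80 on the first day, -1.38 on day 3 and -0.20 on the last. The mitotic genes had medians of -2.02, -0.62, 0.32 and 0.047 on days 1, 2, 3 and 5 in EA1, below 0 on the first 2 days and above it on the last 2. In EA2 they were -1.16, -0.65, -2.05 and -0.11, and in EA3 -1.43, -1.10, -0.49 and -0.84, where the mitotic median on day 5 stayed farther below 0 than that of the replication genes. On day 5 in EA2, a Ccnd1 ratio of -1.90 stood beside a median of -0.20 for the replication genes. Mki67 in EA2 was at 455 CPM with alectinib against 511 CPM in DMSO on that day. Each of these values is 1 pair of libraries.

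The genes most like Ccnd1 were sought among the 9371 tested genes with an average log2 CPM of at least 3, by Pearson's r of log2 CPM over the 24 libraries after each line's mean was taken off. They were Lrp8, a receptor for apolipoprotein E and reelin (r = 0.921), Rpap3, a cofactor in the assembly of RNA polymerase (0.919), and Shmt1, the cytosolic serine hydroxymethyltransferase (0.913). The libraries share treatments and days, so that r is a description only. With alectinib, Lrp8 had log2 differences of -1.48, -2.63 and -1.49 in EA1, EA2 and EA3, Rpap3 of -0.42, -0.57 and -0.47 and Shmt1 of -1.29, -1.74 and -1.09. These values are from the libraries that chose the genes and are given with no test.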

How the data were processed

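RNA sequencing of polyadenylated RNA from 26 libraries was used. The authors checked the reads with FastQC, trimmed adapters, aligned them to mm10 using STAR, and deposited its raw counts per gene, not normalized. The annotation release and the strand column are not given in the sources used here. The table names a gene on all but 24 of 55415 lines. Those 24, which hold dates in place of symbols and took 0.129% to 0.201% of the counts, entered neither library sizes nor tests. Totals ran from 5780060 to 11732400 counts, and floors of 3 counts cover counting error only.

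From the deposited counts, CPM with TMM factors were computed in R 4.3.3 with edgeR 4.0.16 (filterByExpr, robust quasi-likelihood test, Benjamini-Hochberg, threshold 0.05), with limma 3.58.1. DESeq2 1.42.0 served as an alternative and Python 3.11.15 for summaries. A single fit of the 24 libraries sampled up to day 5 held an alectinib effect per line and 12 blocks, each a line and a day, as the labels give the same day to both treatments. As a check, the 2 libraries of a line and day correlated in their deviations from group means between -0.300 and 0.549, above 0.1 in 6 of 12 pairs. Slopes against log2 day were fitted per line and treatment in 1 model, and lines were compared in the 12 DMSO libraries with day as a term. Nothing in the labels says that days were separate cultures or experiments, so that p-values measure the spread between these libraries.

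Genes, lists and naming rule were chosen with earlier results of these data known. The rule names the 10 genes, other regulators called in 3 lines in 1 direction or differing between lines, the 3 genes most like any of the 10 that was called in at least 2 lines, the extremes of the other lists, and Mki67 and Cdkn1a. Gene positions, exon lengths and overlaps are from GENCODE (GRCm38), promoters from RefSeq (GRCm38.p6). Alternatives were DESeq2, its size factors, library size alone, no low-count filter, 10 counts in every library, no day block, all 26 libraries, each line alone, stricter thresholds and each day left out. The calculations were tested on simulated data. Of planted 2-fold changes with alectinib, 46 to 49 of 100 per line were recovered, and of 4-fold changes 82 to 92 of 100. For differences of effect between lines, 91 to 94 of 200 were recovered. For a 2-fold change of the effect per doubling of days, planted in EA1, 20 of 200 were. Items withheld from this work are not reported here.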

Additional observations from a re-analysis of the deposited data

Results flagged for a closer look

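In 3 of 56 groups of 4 libraries, 1 library stood apart from the other 3 by Dixon's criterion, which chance gives in about 1 group in 20. They were Ccnd2 in EA2 DMSO on day 3 (91.0 CPM against 120.3 to 125 CPM), Ccnd2 in EA3 DMSO on day 3 (539 CPM against 178 to 219 CPM) and Cdk6 in EA1 alectinib on day 1 (201 CPM against 143 to 148 CPM).

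The effect of alectinib differed between lines, by the test with 2 degrees of freedom, for E2f8 (adjusted p = 0.0459), Cdt1 (0.00251) and Dut (0.0425), none of which is among the 10 genes.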

How the results depend on the processing

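Leaving out each day in turn gave 1 to 2 called genes in EA1 (2 with all days), 3 to 4 in EA2 (4), 0 to 4 in EA3 (1), 0 to 0 for the difference between lines (0), and 0 to 5 for the 6 sets of slopes (3). When the fold change also had to reach 1 on the log2 scale, 0 genes were called in EA1, 2 in EA2 and 0 in EA3. In EA3, DESeq2 called 2, library size alone 4 and the fit with no replicate block 2. For the difference of effect between lines, DESeq2 called 3, library size alone 1 and no filter on low counts 5. Without the block by day, the counts in EA1 and EA2 were 2 and 4, and no other call of alectinib changed than that of E2f1 in EA3 (-0.49). The cause of these shifts was not tested. Library size alone moved the median of all genes by 0.090 in EA1, -0.050 in EA2 and 0.12 in EA3 on the log2 scale. Ccnd1 shares without division by length were, in DMSO, 56.6% for EA1, 86.5% for EA2 and 51.8% for EA3, and with alectinib 51.5%, 62.4% and 31.0%.

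Directions turned for differences near 0 that were not called. For alectinib these were Ccnd3 in EA3 (-0.00116 with no filter, -0.11 to 0.19 without a day), Cdk4 in EA3 (0.00860 with library size alone) and Cdkn1b in EA3 (0.11 with library size alone, 0.056 with 26 libraries, -0.22 to 0.20 without a day). Leaving out a day also turned Ccnd2 in EA2 (-0.31 to 0.032), Cdkn2a in EA2 (-0.23 to 0.025) and EA3 (-0.00481 to 0.16), and Ccne1 in EA1 (-0.76 to 0.22). In DMSO, EA3 minus EA1 turned for Cdk6 (-0.000461 with DESeq2, -0.000339 with its size factors, -0.018 with no filter, -0.18 to 0.10 without a day), Cdk4 (-0.20 to 0.078) and Cdkn1b (-0.022 to 0.31). Of 220 comparisons of single genes with another setting for alectinib, 201 kept direction and side of the threshold, as did 141 of 154 in DMSO. With a day left out, 90 of 112 for alectinib, 98 of 104 in DMSO and 5 of 12 slopes did. A minimum of 10 counts in every library removed Cdkn2a and Cdkn2b.

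With 1 library per line, treatment and day, no day has a replicate of its own, and a missed threshold does not show that a gene stayed the same. Counts were low for Cdkn2a and Cdkn2b in EA1, with at most 1 in a library, and for Ccne1, which fell to 29 counts in 1 library.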

Other observations

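The 2 libraries labelled EA3 day 7, which correlated best with EA2, entered the comparisons above only where their inclusion is stated. Scaled with all 26 libraries, Ccnd1 was at 1087 CPM in DMSO and 270.1 CPM with alectinib, Cdkn1b at 56.0 and 78.4 CPM, and Cdkn2a at 441 and 737 CPM. Cdkn2b was at 148 and 162 CPM, E2f1 at 54.1 and 47.8 CPM, Ccne1 at 17.4 and 10.4 CPM, and Cdk6 at 149 and 117 CPM. Ccnd2 was at 156 and 96.2 CPM, Ccnd3 at 57.9 and 77.0 CPM and Cdk4 at 233 and 330.0 CPM. There is 1 library per treatment, so that these values have no spread.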
